A study of Mus musculus with 7 samples.

Results

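Binding of endogenous p400 to promoters was compared between *Hdac6* KD and *GFP* KD ESCs, row by row over the transcription start sites (TSSs) with a RefSeq identifier. A row is 1 TSS, and its p400 level is the mean ChIP signal from −500 to 500 bp. Members were the rows with 20 or more reads in both samples together, which left 20393 of 22704 rows. They belong to 16006 of 17689 genes, and a gene is represented by its TSS with the most reads unless rows are named. Gene symbols and positions were taken from the Flag ChIP files by RefSeq identifier and file order. Just outside the minimum, 256 rows with 19 reads averaged 0.106 ppm in the control and 0.092 ppm in the knockdown, and just inside it, 285 rows with 20 reads averaged 0.107 and 0.1 ppm.

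Both p400 samples came from wild-type, feeder-free E14 ESCs, a mouse embryonic stem cell line, infected with lentivirus carrying a hairpin against *Hdac6* or, as the control, against GFP, and harvested 72 hr after infection. The label of each p400 sample names an antibody against p400 itself, which was followed here, whereas the protocol text shared by all samples names only Flag. Of the other samples in the series of 7, 4 are used beside them: Tip60 by Flag ChIP in *Tip60-H3F* ESCs (*GFP* KD and *Hdac6* KD), Hdac6 by Flag ChIP in *Hdac6-H3F* ESCs (*GFP* KD), and a Flag ChIP from untagged cells as a measure of antibody background. The tagged lines carry the epitope on the endogenous gene in E14 cells. With 1 sample on each side there is no replicate check and no test was made, and the effect of the knockdown cannot be told apart from that of the culture or the library. ChIP does not measure expression, so the depletion of Hdac6 was not checked here, nor was the cell type.

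Tip60-p400 is a chromatin remodelling complex that joins an acetyltransferase, Tip60, with p400, a Swi/Snf-family ATPase that exchanges histone H2A.Z into nucleosomes. In ESCs it sits at promoters of active genes and also at developmental genes that it helps to silence. Hdac6 is a deacetylase known mainly from the cytoplasm, where it acts on tubulin and Hsp90, but in ESCs part of it is nuclear. Mammalian promoters fall broadly into CpG islands, which drive housekeeping and many developmental genes, and CpG-poor promoters of tissue-restricted genes.

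The sequences just upstream of a few of these TSSs show what kinds of promoter lay at either end of the comparison. The first 3 are those with the firmest loss of p400 that have a clear upstream stretch, and the last pair are the gene with the firmest gain and the gene with the most reads among those with nearly equal p400. Each runs 5′ to 3′ toward the TSS on the gene's strand, stops before any annotated exon or neighbouring TSS, and has its CG dinucleotides in capitals. Coordinates and sequence are from the mm9 genome (NCBIM37).
Hdx (chrX:108810689-108810938, minus strand): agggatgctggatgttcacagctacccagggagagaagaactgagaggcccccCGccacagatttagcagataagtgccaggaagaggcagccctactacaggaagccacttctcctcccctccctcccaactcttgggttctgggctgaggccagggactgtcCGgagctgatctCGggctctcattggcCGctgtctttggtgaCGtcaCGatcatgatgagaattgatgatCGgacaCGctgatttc
Fubp1 (chr3:151873244-151873421, plus strand): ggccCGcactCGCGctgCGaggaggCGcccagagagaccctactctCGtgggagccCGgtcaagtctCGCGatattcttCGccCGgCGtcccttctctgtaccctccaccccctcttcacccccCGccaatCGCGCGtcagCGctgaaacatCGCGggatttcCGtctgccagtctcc
Hnrnpk (chr13:58503503-58503628, minus strand): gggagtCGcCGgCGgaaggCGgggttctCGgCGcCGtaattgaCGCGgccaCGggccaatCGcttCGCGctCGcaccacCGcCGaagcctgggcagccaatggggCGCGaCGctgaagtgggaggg
Gsdma2 (chr11:98507823-98508072, plus strand): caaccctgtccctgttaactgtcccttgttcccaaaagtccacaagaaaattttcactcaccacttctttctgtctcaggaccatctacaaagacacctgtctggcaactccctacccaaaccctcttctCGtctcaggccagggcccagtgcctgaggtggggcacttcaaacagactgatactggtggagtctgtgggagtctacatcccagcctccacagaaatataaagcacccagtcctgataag
A530032D15Rik (chr1:85267142-85267391, minus strand): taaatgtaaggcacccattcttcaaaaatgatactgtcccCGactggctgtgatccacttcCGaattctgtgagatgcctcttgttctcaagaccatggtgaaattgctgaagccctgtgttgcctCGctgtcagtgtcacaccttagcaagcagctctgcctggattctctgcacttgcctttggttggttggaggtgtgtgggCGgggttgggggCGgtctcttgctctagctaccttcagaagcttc
In these windows *Fubp1* and *Hnrnpk* held 20 CG dinucleotides in 178 bases and 19 in 126 bases, against 8, 1 and 5 in the 250 bases upstream of *Hdx*, *Gsdma2* and *A530032D15Rik*. Of the motifs searched on both strands, a CCAAT box was found in *Hdx*, *Fubp1* and *Hnrnpk*, overlapping CRE matches (TGACGTC) in *Hdx*, the CTCGCGA motif in *Fubp1*, a TATA box (TATAAA) in *Gsdma2* and GC boxes (GGGCGG) in *A530032D15Rik*.

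The p400 values had been scaled to 25.3 M reads in the control and 31.4 M in the knockdown, read from the step between values, and the median number of reads in a row was 21 (quartiles 13 and 29) and 19 (quartiles 14 and 24). Intervals below are exact 95% intervals of the ratio from these reads, which cover counting error only, and read occurrences were kept by the authors, so reads are not all independent molecules. The libraries differed in their response to base composition. In the flanks from 1500 to 2000 bp of a TSS, the knockdown signal divided by the control signal was 0.64 in windows of 25 to 27.5% GC, 1.11 at 55 to 57.5% and 0.76 at 62.5 to 65%, and 3317 rows have a higher GC content than that. The part of base composition in the results was not tested beyond the values given with each.

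Promoter p400 was lower upon *Hdac6* KD in most of the TSS rows. Over the 20393 rows the mean level went from 0.275 to 0.188 ppm, that is by −31.9%, while the flanks from 1500 to 2000 bp on either side changed by −2.76%, from 0.164 to 0.16 ppm. The p400 level was lower in 15503 rows and higher in 4890. The median log2 ratio was −0.52, with a 5th percentile of −1.53 and a 95th percentile of 0.72. Of the rows, 4607 (22.6%) were at least 2-fold lower and 465 (2.28%) at least 2-fold higher. With both samples scaled to equal totals the median log2 ratio was −0.24, a shift of all rows alike, and the counts were 2236 lower and 1014 higher. The totals are the mean signal over all positions of all deposited rows, 0.1929 and 0.1593 ppm for p400, and not library size. They include the promoters, so this scaling takes out part of any loss there. The counting interval lay below a ratio of 1 in 5545 rows (27.2%) and above it in 276 (1.35%), where an interval of 95% may miss on either side by counting alone in 2.5%. With 1 row per gene, 3900 of 16006 genes (24.4%) fell at least 2-fold and 296 (1.85%) rose at least 2-fold, and the interval lay below 1 in 4781 genes (29.9%) and above 1 in 173 (1.08%).

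The range of p400 levels between promoters narrowed. Upon *GFP* KD the 95th percentile of rows was 4.64 times the 5th (0.5 over 0.108 ppm), and upon *Hdac6* KD it was 2.92 times (0.288 over 0.0987 ppm). The 95th percentile came down, while the 5th moved little. Both 5th percentiles lie close to the mean level of rows with exactly 20 reads, 0.107 ppm for the control and 0.1 ppm for the knockdown. The lower end is therefore in part set by the minimum of reads, as are the ratios of percentiles that use it. How far the lower end moved without that minimum was not tested. By position, p400 was highest at 60 bp downstream of the TSS upon *GFP* KD, with 0.307 ppm, and at 120 bp upon *Hdac6* KD, with 0.199 ppm. The change was −29.8% upstream (−600 to −200 bp) and −34.4% downstream (−100 to 300 bp), with lower values in 14365 and 14937 rows. With windows of 500 bp that meet at the TSS the order turned, with −32.9% upstream and −31.0% downstream, so the loss showed no side of the TSS that held under both choices of window.

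**Figure D1:**
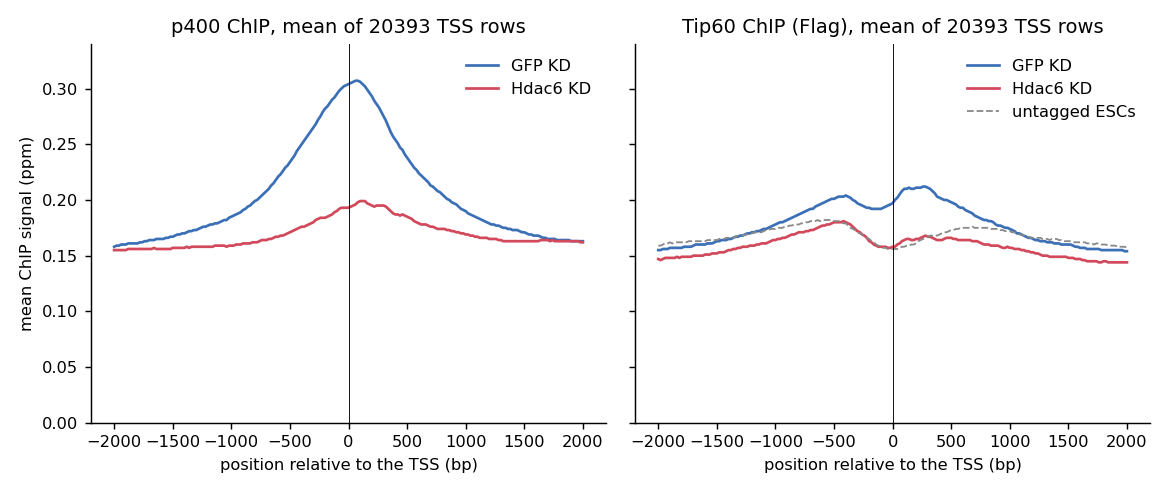
Mean ChIP signal in ppm against position relative to the TSS over 20393 rows, for p400 (left) and Flag-tagged Tip60 (right) upon GFP KD (blue) and Hdac6 KD (red), with untagged ESCs dashed. The p400 peak falls from 0.307 to 0.199 ppm while its flanks nearly meet.

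The genes with the firmest loss of p400, ranked by the upper bound of the ratio, came from high starting levels. After *Cd36* they were *Hdx*, *Fubp1*, *Aurka*, *Anp32b*, *Hnrnpk*, *Rpl10a*, *Cstf1*, *Nfyc*, *Yars*, *Rmi1*, *Slc7a1*, *Morf4l2*, *Ccnb2* and *Sept7*. *Cd36*, which encodes a fatty acid scavenger receptor, heads the list with 157 reads in the *GFP* KD sample and 12 in the *Hdac6* KD sample, but 83.4% of its *GFP* KD reads entered at a single 20-bp step, which is a stack and not a peak. Such stacks were found in 4 member rows. *Hdx*, an X-linked homeobox gene, went from 66 to 8 reads, a change of −90.3% with no stack, and its level upon *Hdac6* KD was 4.05 to 20.4% of that upon *GFP* KD. Untagged Flag signal at *Hdx* was 0.325 ppm (mean of all genes 0.167 ppm), above its Tip60 signal of 0.198 ppm upon *GFP* KD. *Fubp1*, whose protein binds an element upstream of *Myc*, had 61 and 12 reads (0.706 and 0.116 ppm, −83.6%). *Hnrnpk*, which encodes an RNA-binding protein of the spliceosome, had 67 and 15 reads (−81.9%).

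*Ccnb2*, a mitotic cyclin, went from 49 to 11 reads (−82.5%). *Aurka*, the mitotic kinase Aurora A, went from 80 to 18 (−81.6%), and *Cstf1*, a cleavage stimulation factor, from 90 to 23 (−79.3%). *Aurka* and *Cstf1* are divergent neighbours whose TSSs at 172196025 and 172196503 on chromosome 2 share reads, as do *Hnrnpk* and *Rmi1* (58503502 and 58503629 on chromosome 13), so these are 2 observations and not 4. *Rpl10a*, a protein of the large ribosomal subunit, had 81 and 20 reads, and its peak of 1.46 ppm at 20 bp was gone, with no position from −1000 to 1000 bp above 0.382 ppm. *Yars*, the tyrosyl-tRNA synthetase, had 101 and 27 reads, and its highest value went from 2.41 to 0.414 ppm. *Slc7a1*, the cationic amino acid transporter, had 88 and 24 reads (−77.9%). *Morf4l2*, whose product belongs to the Tip60-p400 complex itself, had 40 and 8 (−82.8%).

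The genes with the firmest gain started near or below the flanks. Ranked by the lower bound they were *Gsdma2*, *Npc1l1*, *Aoc3*, *Cpa1*, *Vmn2r90*, *Ano9*, *Defb43*, *Gm826*, *Olfr1347* and *Apoa4*. They held 3 to 11 reads upon *GFP* KD and 20 to 40 upon *Hdac6* KD. *Gsdma2*, a gasdermin gene, went from 3 to 29 reads (0.0403 to 0.269 ppm, interval 242 to 4000% of the control level), and *Npc1l1*, the intestinal cholesterol transporter, from 7 to 40 (0.0829 to 0.37 ppm). *Apoa4*, an apolipoprotein of the intestine, had 11 and 40. *Cpa1* encodes a pancreatic carboxypeptidase and *Defb43* a defensin. Among all 296 genes at least 2-fold higher, the median number of reads went from 8 to 23, 3.04% were above the flank mean upon *GFP* KD and 88.5% upon *Hdac6* KD. Their mean level upon *Hdac6* KD was 0.224 ppm, against 0.19 ppm for all genes, and their own flanks held 0.137 and 0.156 ppm. The ratio and the starting level share the *GFP* KD reads, so a low start among gains and a high start among losses is in part given by the choice. The high *Hdac6* KD level of the gains is likewise set by the choice, since with so few control reads most could reach the minimum of 20 reads only through the *Hdac6* KD sample.

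Genes that kept their p400 were sought among those with a strong start. No gene had an interval within 2/3 to 3/2, so the 10 genes with the most *GFP* KD reads among the 1680 with a ratio of 0.9 to 1.1 (the highest 1% of untagged signal left out) were taken instead, a rule chosen after the values were seen. They were *A530032D15Rik*, *Cdk4*, *BC018101*, *Hexa*, *Fbxl6*, *H2-Q6*, *Ccdc43*, *Dohh*, *Grpel2* and *Hmha1*, with 33 to 43 reads upon *GFP* KD. At *A530032D15Rik* untagged Flag signal was 0.335 ppm, above its Tip60 signal of 0.245 ppm upon *GFP* KD. *Cdk4*, the kinase of the G1 phase, had 40 and 46 reads (0.46 and 0.429 ppm, −6.71%, interval 59.4 to 145% of the control level). *Hexa*, a lysosomal hexosaminidase, had 39 and 46 (−5.1%). The lower bounds of the 10 intervals ran from 56.7% of the control level (*Ccdc43*) to 66.6% (*A530032D15Rik*), so losses of that size are not excluded by the counts. Over the 1695 genes with a ratio of 0.9 to 1.1 when rows of high untagged signal are kept, the median level was 0.204 ppm upon *GFP* KD, below the 0.275 ppm of all genes, and 15.5% started above the median of all genes.

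**Figure D2:**
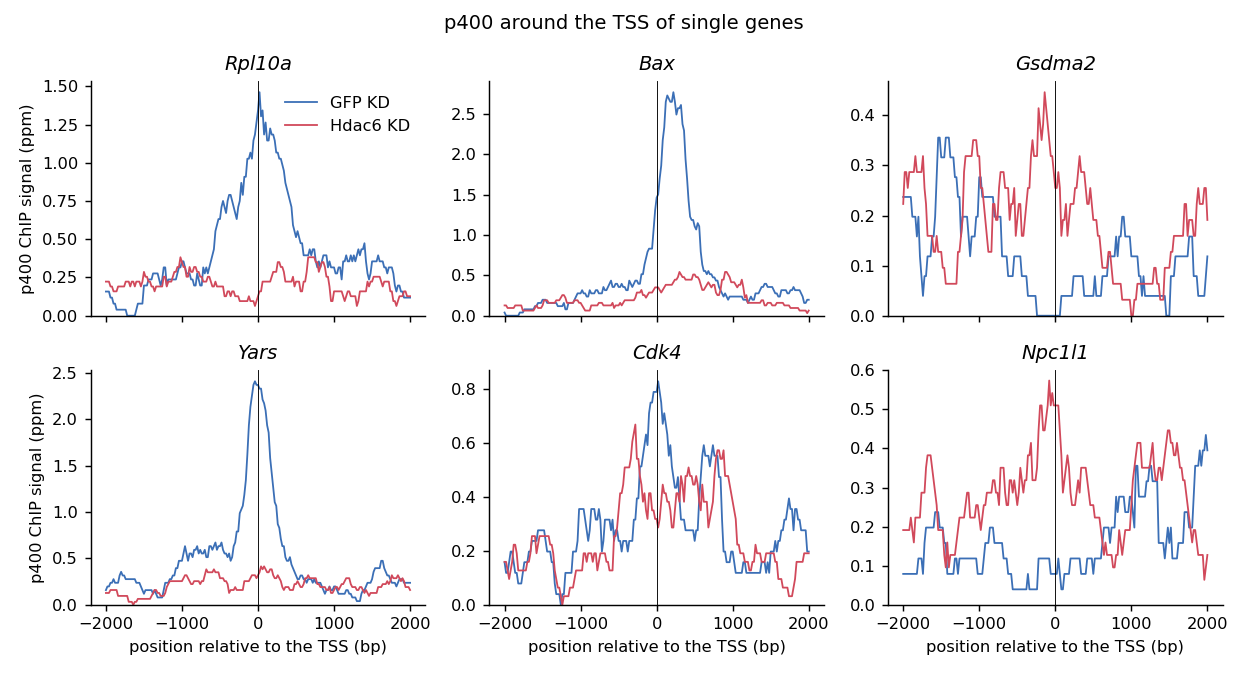
p400 ChIP signal in ppm every 20 bp from −2000 to 2000 bp of the TSS for 3 genes with a large loss (Rpl10a, Yars, Bax), 1 with little change (Cdk4) and 2 with a gain (Gsdma2, Npc1l1), upon GFP KD (blue) and Hdac6 KD (red). Each vertical axis has its own scale, and the highest value of Bax is 2.77 ppm upon GFP KD against 0.446 ppm upon Hdac6 KD for Gsdma2.

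**Figure D3:**
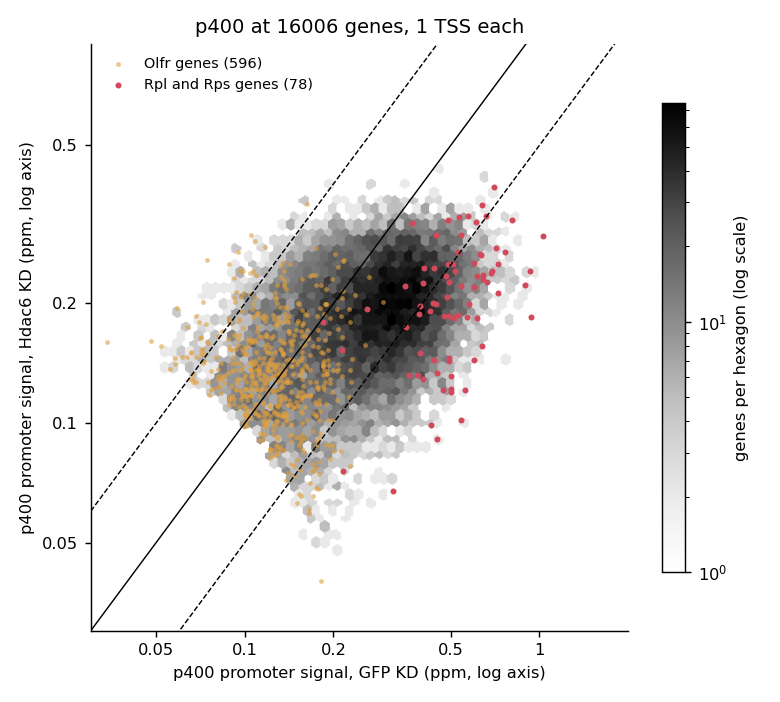
p400 promoter signal upon Hdac6 KD against GFP KD for 16006 genes on log axes, as counts per hexagon, with 78 Rpl and Rps genes in red and 596 Olfr genes in orange; the solid line marks equal levels and the dashed lines a 2-fold difference. Rpl and Rps genes lie at the right and mostly near or below the lower dashed line, Olfr genes around the solid line, and 1 gene (Sfi1) lies outside the axes.

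Across gene lists, the lowest median was that of cytosolic ribosomal protein genes. The values to set beside every list are those of all 16006 genes. These had a median log2 ratio of −0.57, with 24.4% at least 2-fold lower and 1.85% at least 2-fold higher. For lists that started high, the 4078 rows in the top quintile of *GFP* KD level are a closer measure. Their mean start was 0.471 ppm, their median log2 ratio −1.10, and 60.7% were at least 2-fold lower. Whether a list differs from other genes of like starting level was not tested. All 79 cytosolic ribosomal protein genes were lower, 59 (74.7%) at least 2-fold against 24.4% of all genes, and their median log2 ratio was −1.39 against −0.57 for all genes. Their median level was 0.508 ppm upon *GFP* KD, against 0.275 ppm for all genes, and 0.22 ppm upon *Hdac6* KD against 0.187 ppm. The largest fall was at *Rpl17* (47 to 11 reads, −81.1%), and the smallest difference at *Rpl3l* (32 and 34 reads, −13.7%), the muscle form of *Rpl3*. Aminoacyl-tRNA synthetase genes had a median of −1.15, with 21 of 33 at least 2-fold lower, from a median level of 0.487 ppm upon *GFP* KD. Among them *Gars*, for glycyl-tRNA synthetase, went from 70 to 20 reads and *Wars2* from 47 to 16, while *Sars* had 31 and 30. Translation factor genes had a median of −0.93 with 27 of 62 at least 2-fold lower, from *Eef1a1*, the elongation factor (53 to 18 reads), to *Eif4g3* (15 and 28). For mitochondrial ribosomal protein genes it was −0.98 with 33 of 69, led by *Mrpl54* (82 to 25 reads). Pseudogene copies of ribosomal protein genes can share reads with their parents.

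Genes of amino acid supply and stress, targets of the Atf4 pathway among them, had a median of −1.28, and 19 of 28 were at least 2-fold lower. Their median level upon *GFP* KD was 0.487 ppm, against 0.275 ppm for all genes. *Psat1* (98 to 32 reads), *Psph* (63 to 21), both of serine synthesis, and *Asns*, asparagine synthetase (55 to 18), fell most, whereas *Slc1a5* had 25 and 28 reads. Tip60 signal at these genes changed by −49.2%, and at synthetase genes by −45.4%, against −17.7% over all genes. The mean Tip60 levels of the 2 lists upon *GFP* KD were 0.45 and 0.486 ppm, with untagged signal of 0.203 and 0.208 ppm. Over all genes Tip60 was 0.206 ppm and untagged signal 0.167 ppm, so the percent changes hold unlike amounts of background. At cytosolic ribosomal protein genes the Tip60 change was −26.8%.

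Lists of RNA processing and division followed. Splicing factor genes had a median of −1.14, with 39 of 65 at least 2-fold lower, including *Sfrs6* (67 to 19 reads). Their median level upon *GFP* KD was 0.427 ppm. Replication-dependent histone genes had −1.10, with 28 of 54, although many are near-identical copies among which reads were placed at random. They started from a median of 0.271 ppm, the level of all genes (0.275 ppm), and ended at 0.114 ppm against 0.187 ppm. Cyclin, kinase and licensing genes had −0.99 with 32 of 66, and the list ran from *Ccnb2* and *Aurka* to *Cdc25a*, the phosphatase that frees Cdk2 (17 and 30 reads), and *Mcm10*, a replication initiator (15 and 31). DNA repair genes had −0.87 with 23 of 60, from *Mre11a* (53 to 17) to *Xrcc1* (19 and 27). Chaperone genes had −0.79 with 33 of 82, among them *Hspa9*, the mitochondrial Hsp70 (115 to 39 reads). Respiratory chain genes had −0.82 with 32 of 87 and proteasome genes −0.73 with 11 of 34, led by *Atp5g2* (67 to 19 reads) and *Psmb5* (39 to 10). Zfp zinc finger genes had −0.79, with 77 of 261 (29.5%, near the 24.4% of all genes) at least 2-fold lower and 2 at least 2-fold higher, and at a minimum of 50 reads their median was −0.83 against −0.81 for all genes.

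p53 target genes were lower in all 22 cases, against 78.6% of all genes, and 11 (50.0%) were at least 2-fold lower, against 24.4%, with a median of −0.94. Their median level upon *GFP* KD was 0.387 ppm, against 0.275 ppm for all genes. *Bax*, the pro-apoptotic pore former, went from 115 to 35 reads, *Aen* from 96 to 31, *Mdm2*, the ligase for p53, from 54 to 18, and *Pmaip1* from 44 to 18. *Cdkn1a*, the inhibitor of cyclin-dependent kinases, had 32 and 22 reads (−43.5%, interval 30.7 to 98.5%).

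Most developmental lists, and solute carrier genes, had medians near the −0.57 of all genes, of which 24.4% were at least 2-fold lower. Forkhead, Sox and T-box genes had a median of −0.51 (18 of 69 at least 2-fold lower). Dispersed homeobox and paired box genes had −0.55 (25 of 115) and Wnt pathway genes −0.57 (11 of 42). Early endoderm genes had −0.45 (5 of 19) and solute carrier genes −0.52 (67 of 314, with 4 at least 2-fold higher). The shares were lower for clustered protocadherins (−0.40, 7 of 55, 12.7%) and Hox cluster genes (−0.37, 3 of 39, 7.69%). Within these lists, *Gbx2* (45 to 12 reads), *Axin2* (35 to 10) and *Eomes* (32 to 15) fell. *Hoxc6* had 18 and 28 reads and *Foxn1* 18 and 39. Relative to rows of the same decile of GC content, the Hox median was 0.25 and the homeobox median 0.17, with solute carrier, Forkhead, Wnt and endoderm lists also above 0 on that scale (0.04 to 0.10) and clustered protocadherins at −0.29. Neural and germline genes had −0.69 (7 of 26) and −0.73 (6 of 25), and *Pax6* had 17 and 25 reads.

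Among core pluripotency genes 22 of 23 were lower, 8 (34.8%) at least 2-fold against 24.4% of all genes, with a median of −0.86. At a minimum of 50 reads 1 of 9 was at least 2-fold lower, and their median was −0.76 against −0.81 for all genes. *Pou5f1* had 35 and 17 reads (−61.9%), *Sox2* 32 and 17 (−57.0%) and *Zfp42* 23 and 11 (−61.9%). *Nanog* had 28 and 27 (−20.9%), *Sall4* 40 and 32, and *Dppa4* 8 and 19. The ESC genes *Esrrb* (31 and 24), *Klf4* (11 and 9) and *Tdgf1* (14 and 14) were less than 2-fold apart. Of 21 Nodal pathway genes 9 were at least 2-fold lower, with a median of −0.86 that was −0.51 after the flank GC correction, in which each *Hdac6* KD level is divided by what the libraries' ratio was at flanking sequence of equal GC content, a correction chosen after seeing the data and held constant above 65% GC. The ligand *Nodal* had 31 and 16 reads, its cofactor *Foxh1* 41 and 21, the inhibitor *Smad7* 35 and 14 and the receptor gene *Acvr2a* 30 and 11. The antagonist *Lefty1* had 38 and 22 reads and the related *Lefty2* 16 and 29, and *Gdf1* had 8 and 23.

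Genes of the complex itself were among those that lost p400. Of 19 subunit genes 17 were lower, against 78.6% of all genes, and 11 (57.9%) were at least 2-fold lower, against 24.4%. Their median log2 ratio was −1.15, against −0.57 for all genes, and was −0.78 after the flank GC correction. They started from a median of 0.392 ppm upon *GFP* KD, against 0.275 ppm for all genes. Behind *Morf4l2* came *Morf4l1* (50 to 18 reads), *Epc2* (31 to 11), *Brd8* (55 to 24), *Ing3* (39 to 18) and *Yeats4* (37 to 17). *Ep400*, the p400 gene, had 46 and 26 reads (−55.0%, interval 27.1 to 75.3%) and *Trrap* 44 and 25. *Kat5*, the Tip60 gene, had 27 and 22 (−34.9%), *Ruvbl2* 31 and 30, and *H2afz*, which encodes H2A.Z, 22 and 23. Of 17 deacetylase and sirtuin genes 2 were at least 2-fold lower (*Hdac2*, 46 to 17 reads, and *Sirt6*, 36 to 23) and 1 at least 2-fold higher (*Hdac7*, 11 to 28), with a median of −0.75. *Hdac6* itself had 11 and 15 reads (0.122 and 0.136 ppm).

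**Figure D4:**
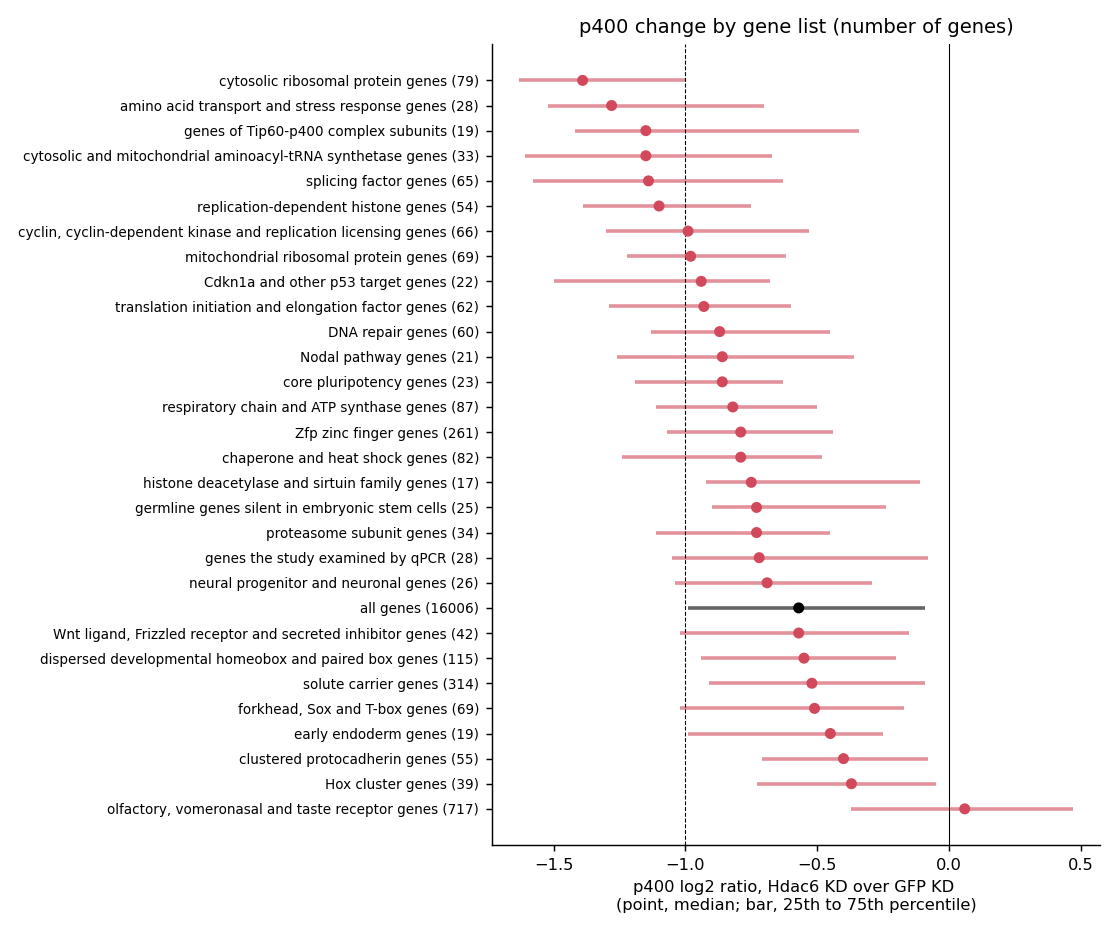
Median log2 ratio of p400 signal, Hdac6 KD over GFP KD, for 29 gene lists and all genes (black), with bars from the 25th to the 75th percentile of genes and the number of genes in brackets; the dashed line marks a 2-fold loss. Cytosolic ribosomal protein genes lie lowest at −1.39, Hox cluster genes at −0.37 and sensory receptor genes highest at 0.06.

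Sensory receptor genes, which are silent in ESCs, were the only one of the 29 lists with a median above 0 on the deposited scale. Of 1351 olfactory, vomeronasal and taste receptor genes 717 passed the minimum of reads, and of these 333 were lower and 384 higher. At least 2-fold lower were 34 (4.74%, against 24.4% of all genes) and at least 2-fold higher 53. They made up 17.9% of the 296 genes at least 2-fold higher and 4.48% of all genes. The 717 genes had a median level of 0.129 ppm in the control and 0.131 ppm in the knockdown, with a median log2 ratio of 0.06. Genes that rose 2-fold from such levels owe most of their 20 or more reads to the *Hdac6* KD sample. At a minimum of 50 reads only 2 of these genes were left. *Vmn1r4* had 34 and 17 reads and *Olfr30* 9 and 32. Rows of this family also made up 27.5% of the 2311 rows below the minimum (636 rows), and as a multigene family they can share reads.

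By symbol root, over 91 roots of 15 or more genes, the lowest medians were those of Rps (−1.37), Rpl (−1.29), Hist (−1.10), Sfrs (−1.08), Rad (−1.08) and Taf (−1.06), the last being subunits of the TFIID factor. The highest were Ccl (0.50), Defb (0.24), Krt (0.19), Clec (0.16), Lce (0.12) and Olfr (0.11), that is chemokines, defensins, keratins, lectins, late cornified envelope genes and olfactory receptors. Of 16 Ccl genes 3 were lower and 2 at least 2-fold higher, with a median level going from 0.143 to 0.196 ppm. Of 54 Hist genes 28 were at least 2-fold lower and none was higher.

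Of the genes the study examined by qPCR, and the genes for p400, Tip60 and Hdac6, 28 of 31 were in the files. The study chose its genes as regulated genes, markers or controls, so they are not an unbiased sample. It showed *Rps9* and *Rpl27a* as highly expressed genes whose Tip60 binding, not p400, changed little upon *Hdac6* KD. Their median log2 ratio was −0.72 against −0.57 for all genes, and 9 of 28 (32.1%) were at least 2-fold lower against 24.4%. With equal totals 2 of 28 were. Those 9 were *Sox11* (22 to 10 reads, −64.9%), *Zfp37* (45 to 22), *Nodal* (31 to 16), *Ep400*, *Rps9* (43 to 24), *Scamp1* (37 to 21), *Gpsm2* (28 to 16), *Gata4* (30 to 18) and *Mal2* (24 to 15). The ribosomal gene *Rpl27a* stood just short of 2-fold, with 46 and 29 reads (−49.2%), and *T*, the Brachyury gene, had 29 and 20. *Lefty2*, *Kdr* (17 and 23), *Gstm3* (20 and 27), *Hdac6* and *Snai1* (18 and 25) were higher by less than 2-fold. *Speer2*, used in the study as an unbound locus, had 12 and 14 reads (0.136 and 0.134 ppm), and *Nefl* 23 and 24.

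Tip60, measured in other cells with another antibody, gave a readout that the choice of rows did not use. At the 4607 rows at least 2-fold lower in p400, mean Tip60 signal went from 0.258 to 0.2 ppm (−22.6%), and it was lower in 3195 of them (69.4%). At the 465 rows at least 2-fold higher in p400, Tip60 went from 0.131 to 0.124 ppm (−5.41%). Over all 20393 rows it went from 0.202 to 0.167 ppm (−17.4%). With 1 row per gene, genes at least 2-fold higher in p400 had 0.127 ppm of Tip60 upon *GFP* KD and 0.129 ppm of untagged signal. Genes at least 2-fold lower had 0.26 and 0.18 ppm, so the percent changes hold unlike amounts of background. In the decile of rows with the lowest p400 ratio the Tip60 change was −26.4%, from the second to the eighth decile between −15.0 and −19.5%, and in the highest decile −8.43%. Row by row the log2 ratios were nearly unrelated, with Pearson's r = 0.0734 and Spearman's rho = 0.0792 over 20363 rows, where a row holds a median of 13 and 9 Tip60 reads. Single genes show this scatter: Tip60 at *Yars* was 1.47 and 0.404 ppm, at *Slc7a1* 1.38 and 0.408 ppm and at *Nfyc* 0.676 and 0.323 ppm, whereas at *Aurka* it was 0.653 and 0.762 ppm. After equal totals the Tip60 change over all rows was −2.43% upstream and −12.4% downstream, against −11.8 and −20.8% as deposited.

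The loss of p400 was graded with the amounts of Hdac6 and Tip60 that the promoters carried upon *GFP* KD. Both amounts went with the starting p400 level and with CpG content. From the lowest to the highest decile the median CpG ratio went from 0.198 to 0.777 by Hdac6 and from 0.286 to 0.759 by Tip60. No comparison at like starting levels was made for either. From the lowest to the highest decile of rows by Hdac6 ChIP signal, p400 went from 0.149 to 0.389 ppm upon *GFP* KD but only from 0.138 to 0.218 ppm upon *Hdac6* KD, so that the change went from −7.12 to −43.9%. The share of rows at least 2-fold lower was 8.63% in the lowest decile and 35.0% in the highest. By Tip60 signal the change went from −10.1 to −51.6%, and 52.6% of rows in the highest decile were at least 2-fold lower. By untagged signal, the background of the Flag ChIPs, it went from −23.9 to −39.6%. Spearman's rho with the p400 log2 ratio was −0.361 for Tip60, −0.345 for Hdac6 and −0.161 for untagged signal over 20393 rows, which share base composition and mappability.

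Among the measures correlated here, CpG content was the most closely related to the p400 ratio, with rho = −0.596, against −0.417 for GC content. The starting p400 level, which shares its reads with the ratio, was not among them. From its lowest to its highest quintile the median log2 ratio went from 0.33 to −1.10. The lowest decile of rows by CpG content had a median observed-over-expected CpG ratio of 0.118. There p400 went from 0.153 to 0.168 ppm, with 3.38% of rows at least 2-fold lower and 7.99% at least 2-fold higher. In the highest decile, with a ratio of 0.948, it was 0.342 and 0.172 ppm, with 46.0% at least 2-fold lower and 0.049% at least 2-fold higher. Upon *Hdac6* KD the deciles thus lay between 0.168 and 0.197 ppm, without the rise from CpG-poor to CpG-rich promoters that was present upon *GFP* KD. Within each of the 5 quintiles of *GFP* KD level, CpG-rich rows still had the lower median ratio. In the middle quintile, 1883 rows at or below the median CpG ratio of 0.6 went from 0.256 to 0.201 ppm (−21.3%), and 2195 rows above it from 0.261 to 0.173 ppm (−33.7%). In the top quintile the changes were −47.7 and −54.3%. In the lowest quintile they were 31.8 and −4.88%, from starts of 0.123 and 0.137 ppm. There the minimum of reads favours rows with many *Hdac6* KD reads. Flank signal changed by 5.82% in the lowest and −14.0% in the highest CpG decile, a gradient of the same direction outside the promoter window.

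**Figure D5:**
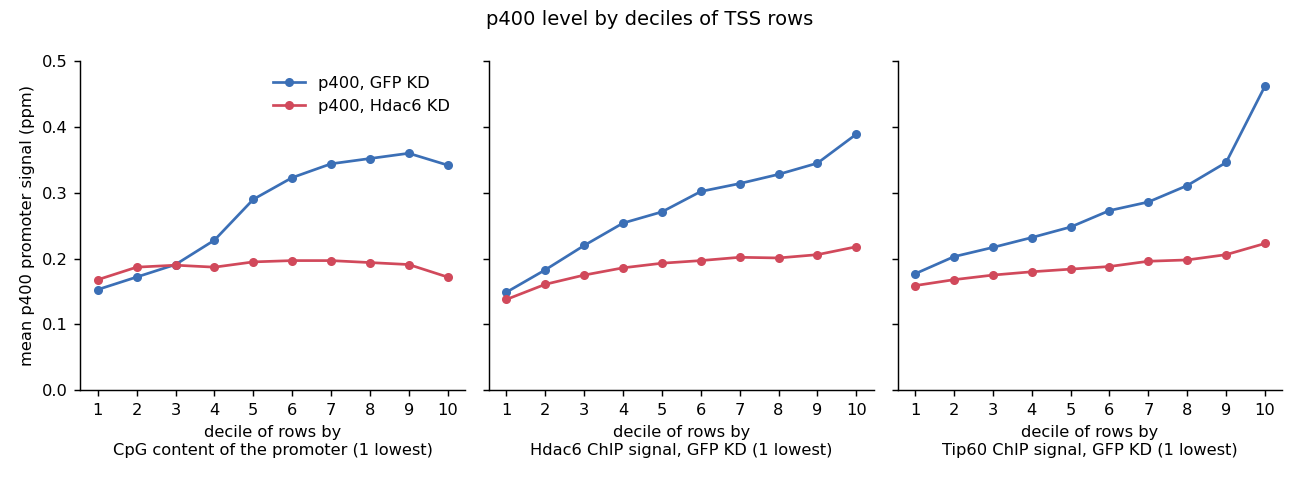
Mean p400 promoter signal in ppm upon GFP KD (blue) and Hdac6 KD (red) in deciles of 20393 rows ordered by CpG observed over expected, by Hdac6 ChIP signal and by Tip60 ChIP signal upon GFP KD, lowest decile at the left. The blue lines climb from 0.153 to 0.342, 0.149 to 0.389 and 0.177 to 0.462 ppm, and the red lines stay between 0.138 and 0.223 ppm.

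Genes with TSSs far apart allowed the same contrast within a gene. For 1963 genes with 2 member TSSs on the same strand at least 2000 bp apart, the TSS of higher CpG content had a median log2 ratio of −0.65 and the TSS of lower CpG content 0.02. At the former 501 (25.5%) were at least 2-fold lower and 15 at least 2-fold higher, and at the latter 115 (5.86%) and 113 (5.76%). The TSS of higher CpG content had the lower ratio in 1513 genes (77.1%). The counting intervals of the pair did not overlap in 103 genes, in 95 of which the TSS with more reads had the lower ratio. Upon *GFP* KD the median number of reads was 24 at the TSS of higher CpG content and 15 at the other. Upon *Hdac6* KD it was 20 at both. The ratio shares the *GFP* KD reads, and the minimum counts both samples together, so these medians and counts are in part given by the choice. The following were named after their values were seen. *Hnrnpk* had 67 and 15 reads at its main TSS and 17 and 20 at one 4086 bp away. *Nfyc* had 74 and 18 reads against 19 and 23 at a distance of 5860 bp, *Psat1* 98 and 32 against 18 and 22, and *Tbc1d9b* 43 and 12 against 10 and 33.

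Promoters that lost most were also richer in several short motifs, counted on both strands from −250 to 49 bp of the TSS. In the decile of genes with the lowest p400 ratio (log2 ratio of −1.35 or lower), 69.4% held a GC box (GGGCGG), 20.1% an ETS motif (CCGGAAG), 13.0% the YY1 core (ATGGCGG), 12.5% the E-box CACGTG and 6.75% CTCGCGA. Over all 16006 genes the shares were 52.8, 13.3, 7.02, 8.47 and 3.17%, and over all 22704 rows 45.8, 11.1, 5.77, 7.66 and 2.63%. In the decile with the highest ratio they were 14.3, 2.19, 1.56, 3.44 and 0.125%. TATAAA went the other way, from 7.81% in the lowest to 19.8% in the highest decile, and CCAAT was alike, with 37.8 and 34.4%. Motifs rich in CG follow CpG content, which had a median of 0.793 in the lowest and 0.199 in the highest decile of genes, and a match does not show that a factor binds.

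By chromosome, the X stood lowest among those with more than 1 member row, with a median log2 ratio of −0.76 over 402 rows, 37.3% of them at least 2-fold lower, and chromosome 7 highest with −0.38 over 1770 rows. Flank signal on the X was also lower, going from 0.0877 to 0.0709 ppm (−19.1%, against −12.0% for Tip60). The part of this flank difference in the promoter ratio was not tested.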

How the data were processed

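p400 was measured by ChIP-seq in 1 *GFP* KD and 1 *Hdac6* KD sample. The authors collapsed reads by sequence with their occurrences kept, aligned them to mm9 with Bowtie (version not given) allowing 1 mismatch, placed reads of several matches at 1 of them at random, removed simple repeats, and extended and normalized the reads. Base calling used CASAVA 1.8.2, per the submitters' processing notes. The deposited signal is coverage in ppm at 201 positions of 20 bp around each TSS, and 100% of values were whole multiples of the value of 1 read (tolerance 0.02). Such stacked and repeated reads can raise single rows. Columns of samples not mapped numbered 0.

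From these files the mean from −500 to 500 bp was taken, as well as reads per row (summed signal divided by the value of 1 read and by the length of a read's footprint). Isolated reads covered 299 bp in the p400, Tip60 and untagged files and 148 bp in the Hdac6 file. The former is longer than the extension stated in the study's methods, and the measured lengths were used, on which all read counts and intervals rest. Intervals are exact conditional binomial (Clopper-Pearson) 95% intervals of the ratio, with a depth ratio of 1.24. A row counts as called past 2-fold. GC and CpG content and motifs were read from NCBIM37, where 48.1% of rows lie at a GENCODE M1 transcript start, and 25 rows have no symbol. Python 3.11.15, numpy 2.4.6, scipy 1.17.1 and pandas 2.3.3 were used, and scripts were tested on simulated data. Members and gene lists were chosen with earlier results of these data known. Named genes are the 15 with the lowest upper bound and the 10 with the highest lower bound, with the top 1% of rows by untagged signal set aside. Without that filter, the genes the study examined, every member of lists of up to 25 genes, and the extremes of longer lists were named. The rule for unchanged genes (interval within 2/3 to 3/2) gave 0 genes and was replaced. Alternatives were other scalings, windows, minimums, folds, choices of rows and corrections for GC content. The Hdac6 ChIP sample with conflicting knockdown labels was not used.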

Additional observations from a re-analysis of the deposited data

How the results depend on the processing

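No paired analysis was possible because each side is 1 sample. The median log2 ratio over rows (−0.52), the change of the mean (−31.9%) and the numbers of rows at least 2-fold lower (4607) and higher (465) moved with the settings, and the cause was not tested. With equal totals they were −0.24, −17.5%, 2236 and 1014. With flank scaling the first pair were −0.47 and −29.7%. With the flank mean subtracted, possible in fewer rows, they were −1.37, −69.1%, 7735 and 1115, and 20 of 28 named genes with values were past 2-fold, against 34 of 53. A window of −250 to 250 bp gave −0.57, −34.9% and 929 higher, and −1000 to 1000 bp gave −0.42, −26.0%, 2537 and 181. No minimum of reads gave −0.49 and −31.3%, and a minimum of 50 gave −0.80, −42.9%, 2345 and 16. With 1 row per gene they were −0.57, −33.8% and 296 higher, and without neighbouring TSSs −0.48 and −30.1%. A fold of 1.5 gave 9409 and 1518, and a fold of 3 gave 847 and 63. Relative to rows of like GC content, which centres the median at 0.00 by construction, they were 1021 and 1191. The flank GC correction, chosen after seeing the data, gave −0.44 and −29.3%. Upstream and downstream of the TSS (−29.8 and −34.4%) the changes were −32.9 and −31.0% with windows meeting at the TSS, −73.5 and −68.7% with the flank mean subtracted and −15.0 and −20.5% with equal totals. For Tip60 they were −30.4 and −61.9% with the flank mean subtracted and −2.43 and −12.4% with equal totals. Of 29 list medians 28 lay below 0 in all settings but the minimum of 50 reads (29, where sensory receptors are 2 genes) and the GC-relative scale (22). Equal totals turned the sign of 4 of 53 named genes. At 21 and 19 reads in a typical row, single genes are resolved only for large changes, and library differences are not measured by any setting.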
